A study of Homo sapiens with 16 samples.

Results

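The genes described here are 10 NF-kB pathway and feedback genes, chosen by name as the rows of the deposited tables called TNFAIP3, NFKBIA, NFKB1, NFKB2, RELB, BIRC3, TRAF1, IER3, ICAM1 and TNFAIP2. Each name matched 1 row, so that the set holds 10 of the 58721 genes counted. RNA was sequenced from the ends of transcripts in 16 libraries of 2 human bladder cancer cell lines, the luminal-type RT112 and the basal-type SCaBER. Each line is a single culture line grown in its own medium, RPMI for RT112 and DMEM for SCaBER, both with serum, so that line and medium cannot be told apart. Cells were transfected short-term with 1 of 4 siRNAs. siFOXA1.1 and siFOXA1.2 target FOXA1, a transcription factor of luminal cells, and siControl.1 and siControl.2 are the controls. All groups carried a siRNA at 10 nM per the labels and the same lipid reagent, and none was left untransfected. Each siRNA has 2 libraries per line, which the labels number as experiment batch replicates 1 and 2. The labels do not say whether these were separate cultures, so that p-values measure the spread between these libraries, which may be technical.

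NF-kB is a family of dimeric transcription factors held in the cytoplasm by inhibitor proteins of the IkB group. Signals from TNF or interleukin-1 receptors activate a kinase complex that marks the inhibitor for destruction, which frees dimers such as p50 with RELA (the canonical route), while a slower route through processing of the NFKB2 product yields p52 with RELB. Dimers bind kB elements near their target genes, and several targets encode inhibitors of the same pathway, which closes a feedback loop. In urothelial cells the pathway is known for its part in inflammatory gene expression.

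Promoter sequences are shown first, since kB elements are the binding sites by which the family acts on its own feedback genes. RefSeq promoters (GRCh38.p14, 250 bases before to 50 bases after each start) were matched by symbol for 8 of the 10 genes in 13 windows. RELB and IER3 had no entry. The kB consensus (3 G, a purine, any base, A or T, 2 pyrimidines, 2 C, searched on both strands) was in 6 of the 13 windows and in 5 of the 8 genes. It was in 5.91% of the 35116 windows of the whole table and in at least 1 window of 7.09% of its 27305 genes. The matches lay in NFKB1, TNFAIP3, NFKB2, BIRC3 and NFKBIA. No match was found in the windows of TRAF1, TNFAIP2 and ICAM1, which says only that these letters are not in those windows. For each of these 5 genes 1 stretch that holds matches is printed 5′ to 3′ on the strand of the gene and end at the base before the start, with the matched bases in capitals.
TNFAIP3, chr6:137867169-137867258, plus strand: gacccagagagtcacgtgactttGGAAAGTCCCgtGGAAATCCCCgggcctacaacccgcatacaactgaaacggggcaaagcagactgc
NFKBIA, chr14:35404750-35404849, minus strand: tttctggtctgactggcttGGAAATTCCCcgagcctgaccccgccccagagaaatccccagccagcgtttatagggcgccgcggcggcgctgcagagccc
NFKB1, chr4:102501269-102501358, plus strand: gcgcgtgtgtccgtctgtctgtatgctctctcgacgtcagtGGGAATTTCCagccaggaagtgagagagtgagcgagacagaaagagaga
NFKB2, second window, chr10:102394448-102394577, plus strand: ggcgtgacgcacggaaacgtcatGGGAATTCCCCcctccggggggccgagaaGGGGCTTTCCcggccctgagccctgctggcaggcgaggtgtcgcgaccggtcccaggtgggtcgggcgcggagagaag
BIRC3, chr11:102317264-102317483, plus strand: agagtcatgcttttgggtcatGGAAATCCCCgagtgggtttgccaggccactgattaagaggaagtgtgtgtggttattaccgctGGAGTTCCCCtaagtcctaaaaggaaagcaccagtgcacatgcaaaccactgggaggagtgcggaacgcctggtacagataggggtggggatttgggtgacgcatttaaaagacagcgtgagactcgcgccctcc
TNFAIP3 held a pair of matches 67 and 55 bases before its start, BIRC3 a pair 199 and 135 bases before, and NFKBIA a single match 81 bases before. In NFKB2 the first capital run, 107 bases before the start, is 2 overlapping matches, and the second lies 78 bases before. The third window of NFKB2, not printed, held 2 more matches 176 and 21 bases before its own start. A match is a description of letters and not a measured binding site.

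Library totals ranged from 6622473 to 7604581 counts in RT112 and from 4528513 to 6914951 counts in SCaBER. A floor of 3 counts per library corresponded to 0.395 to 0.453 CPM (counts scaled to a common library total) in RT112 and to 0.434 to 0.662 CPM in SCaBER, and covers counting error only. The labelled types were checked against marker lists. Luminal markers summed to 2617 to 4866 CPM in RT112 and to 99.99 to 192 CPM in SCaBER, although KRT20 reached at most 5 counts in RT112 and UPK3A was at 0 in both lines. KRT19 alone had 1990 to 3376 CPM in RT112 and at most 3.27 CPM in SCaBER, so that it makes up most of the luminal sum of RT112. Basal markers summed to 340.2 to 685 CPM in RT112 and to 2223 to 3719 CPM in SCaBER. KRT16 of that list was not higher in SCaBER, at 27.6 to 66.1 CPM in RT112 and 13.1 to 55.1 CPM in SCaBER. Of the immune markers, PTPRC and CD3E were at 0 in all libraries. FOXA1 had 137 to 266 counts in the RT112 control libraries, 9 and 22 counts under siFOXA1.1 (log2 change -3.44 ± 0.47 SE, adjusted p = 2.19e-05) and 63 and 117 counts under siFOXA1.2 (-1.10 ± 0.39, adjusted p = 0.205, edgeR quasi-likelihood test here and below). In SCaBER FOXA1 had 0 to 15 counts in all libraries and did not pass the filter on low counts, so that the knock-down could not be checked in the second line.

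The first comparison set the lines against each other in the 4 control libraries of each. All members that passed the filter differed between the lines, and nearly all of them were higher in SCaBER. Of the 10 members 9 were tested and 9 passed an adjusted p of 0.05, 8 lower and 1 higher in RT112, beside 43.4% of the 12309 genes tested. ICAM1 and TRAF1 passed the filter only through their counts in SCaBER. For these genes a higher level in SCaBER was thus set in advance, and their calls add no support. The median log2 difference, RT112 minus SCaBER, was -4.42 over the 9 members and 0.02 over all genes. ICAM1 and TRAF1 both lie below this median, so that it rests in part on the filter. With both left out, the middle value is that of NFKB1, -1.87. Control counts are listed here and later as siControl.1 replicates 1 and 2, then siControl.2 replicates 1 and 2.

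The feedback inhibitors differed unequally. TNFAIP3 (ENSG00000118503, chromosome 6, 137866349 to 137883312) encodes A20, a ubiquitin-editing enzyme that ends NF-kB signalling. It had 48, 50, 44 and 50 counts in the RT112 control libraries and 936, 913, 804 and 663 counts in those of SCaBER. The lines were far apart, at 6.67 ± 0.74 and 143.7 ± 10.5 CPM (SD, n = 4 each), a log2 difference of -4.42 ± 0.18 (SE). NFKBIA (ENSG00000100906, chromosome 14, 35401513 to 35404749) encodes IkBα, the inhibitor that retains the dimers in the cytoplasm. It was among the most abundant members in both lines, at 124 ± 13.2 CPM in RT112 and 348 ± 71.5 CPM in SCaBER, and its log2 difference was -1.47 ± 0.16.

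The subunit genes followed the same order between the lines. NFKB1 (ENSG00000109320, chromosome 4, 102501359 to 102617302) encodes p105 and p50, and averaged 27.6 ± 6.19 CPM in RT112 against 102 ± 5.62 CPM in SCaBER. NFKB2 (ENSG00000077150, chromosome 10, 102394110 to 102402529) encodes p100 and p52, and averaged 11.5 ± 2.21 against 42.2 ± 6.88 CPM. Their log2 differences were close, -1.87 ± 0.19 and -1.86 ± 0.24. RELB (ENSG00000104856, chromosome 19, 45001464 to 45038192), the partner of p52, was set further apart, with 18, 24, 26 and 2 counts in RT112 and 250, 275, 286 and 390 counts in SCaBER. Its log2 difference was -4.45 ± 0.48.

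The widest gaps were among the target genes. BIRC3 (ENSG00000023445, chromosome 11, 102317484 to 102339403) encodes cIAP2, a ubiquitin ligase of TNF receptor complexes that restrains cell death. It had 26, 31, 21 and 11 counts in RT112 and 2484, 3769, 2098 and 1980 counts in SCaBER, and the mean CPM was 143-fold higher in SCaBER (log2 difference -7.14 ± 0.29). ICAM1 (ENSG00000090339, chromosome 19, 10271120 to 10286615) encodes an adhesion molecule for leukocytes. It had 0 counts in the 4 RT112 control libraries and 115, 216, 127 and 89 counts in SCaBER, at least 51.4-fold higher in SCaBER against the highest RT112 floor of 0.453 CPM per library. TRAF1 (ENSG00000056558, chromosome 9, 120902393 to 120929171), an adaptor of TNF receptors, had 4 counts in all 4 RT112 control libraries together and 229 in those of SCaBER. The pooled ratio was 71.7 (95% exact interval 27.6 to 265, counting error only). TNFAIP2 (ENSG00000185215, chromosome 14, 103121469 to 103137439), which encodes a protein first described as induced by TNF, was the only tested member higher in RT112, at 269.7 ± 47.6 CPM against 166 ± 14.5 CPM (log2 difference 0.72 ± 0.15). With limma on log2(TPM + 0.5) this difference was 0.30 with an adjusted p of 0.0759, where the median of all genes moved to -0.34 and the share of called genes higher in RT112 went from 48.9% to 28.5%. The other 8 differences passed the threshold in all 15 alternatives run for each.

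IER3 (ENSG00000137331, chromosome 6, 30743199 to 30744547), an early response gene, was the only member not tested in any comparison. It was at 0 in 10 of the 16 libraries and reached at most 25 counts, in SCaBER siFOXA1.2 replicate 1. Its surroundings in the counts were equally low. Of 32 protein-coding genes of the RefSeq annotation within 500 kb of it, 3 averaged 20 counts or more (9.38%), compared with 51.4% of the 887 others on chromosome 6. TUBB, which encodes a tubulin that dividing cells express, lies in that stretch and had 0 to 11 counts, and FLOT1 and DDR1 had 0 to 39 and 0 to 2. This look at the neighbourhood was chosen after the counts of IER3 had been seen, and its part in the level of IER3 was not tested.

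Levels of different genes were compared on the TPM scale, which divides by gene length. Since the reads came from transcript ends, TPM can understate long transcripts, and places that differ by CPM are given at the end of this paragraph. In the RT112 control libraries the order by mean TPM was TNFAIP2 (105 ± 15.1), NFKBIA (102 ± 8.22), NFKB1 (8.64 ± 1.86), NFKB2 (5.04 ± 0.95), TNFAIP3 (2.58 ± 0.25), RELB (1.56 ± 0.996), BIRC3 (0.805 ± 0.318), IER3, TRAF1 and ICAM1 (SD, n = 4). The ranges of TNFAIP2 and NFKBIA overlapped, as did those of RELB and BIRC3 and those of each pair after them. In SCaBER the order was NFKBIA (377 ± 87.2), BIRC3 (152 ± 39.7), TNFAIP2 (84.2 ± 6.04), TNFAIP3 (72.8 ± 5.29), RELB (45.8 ± 18.2), NFKB1 (41.7 ± 3.30), NFKB2 (24.1 ± 4.18), ICAM1 (16.2 ± 5.31), TRAF1 (4.03 ± 2.31) and IER3 (0.105 ± 0.21). There the ranges of TNFAIP3, RELB and NFKB1 overlapped each with the next, as did those of NFKB2 and ICAM1. BIRC3 stood at place 7 in RT112 and at place 2 in SCaBER by TPM, and at places 6 and 1 by CPM, which is not divided by length. Other neighbours also depended on the scale. By CPM in RT112, TNFAIP2 (219.6 to 328) lay above NFKBIA (111.5 to 142.7) without overlap. By CPM in SCaBER, NFKB1 (97.3 to 109.4) lay above RELB (41.6 to 86.1), the reverse of their order by TPM.

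**Figure D1:**
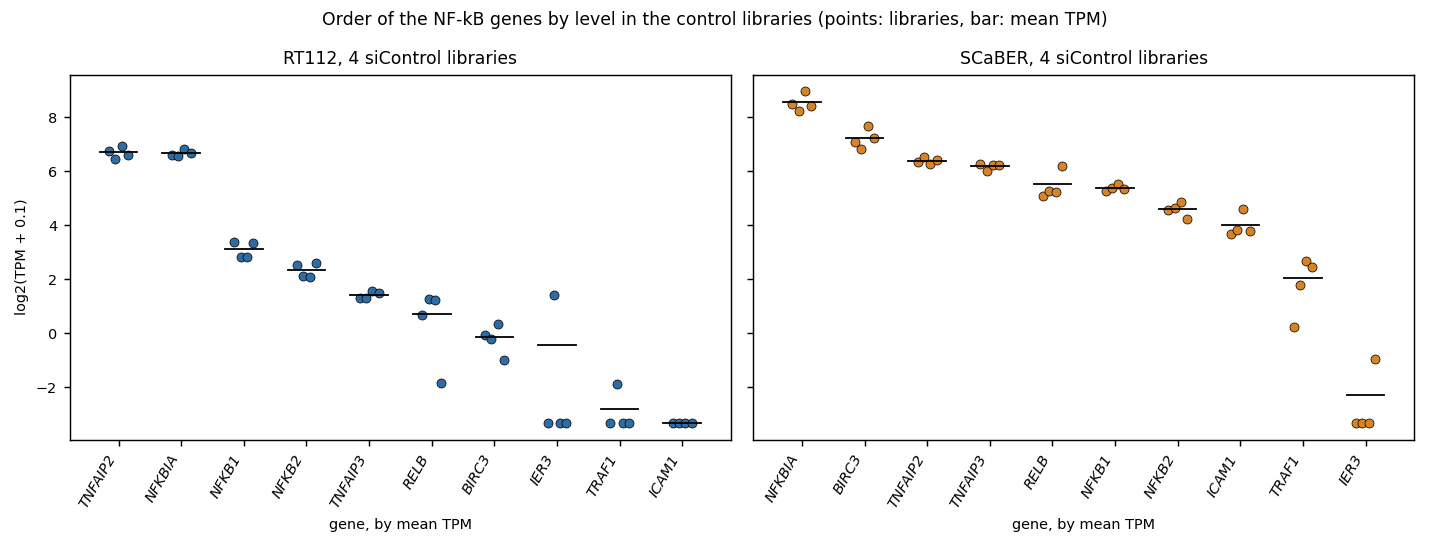
Level of each of the 10 genes in the 4 siControl libraries of RT112 (left) and SCaBER (right), as log2(TPM + 0.1) on the vertical axis, with the genes ordered by mean TPM. Points are libraries and bars the mean TPM; BIRC3 has a mean of 0.805 TPM in RT112 and 152 TPM in SCaBER, and ICAM1 is at 0 in all 4 RT112 libraries.

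The second comparison asked how the genes changed in RT112 under the siRNA with the deeper fall of FOXA1. Under siFOXA1.1, BIRC3, RELB, NFKB2 and NFKBIA rose against both controls and TNFAIP2 fell. Of the 7 members tested, 5 passed the threshold, beside 32.6% of the 11986 genes tested. TRAF1, IER3 and ICAM1 did not pass the filter. The median log2 change of the 7 was 1.14, and of all genes -0.01.

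Of the inhibitors, NFKBIA had 928, 945, 838 and 868 counts in the control libraries and 1240 and 1066 under siFOXA1.1. Both siFOXA1.1 libraries, at 182 and 157 CPM, were above the control range of 112 to 143 CPM, and the log2 change was 0.58 ± 0.13 (SE, adjusted p = 0.00217). Here and below, the share of all genes that lie outside the range of the controls in this way is not given. Each such separation is therefore a description only. TNFAIP3 had 95 and 87 counts against 44 to 50 in the controls. Both siFOXA1.1 libraries lay above the controls, but the change of 1.14 ± 0.45 did not pass the adjusted threshold (adjusted p = 0.0643, and 0.052 with DESeq2).

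The subunits did not move as 1 group. RELB had 111 and 76 counts under siFOXA1.1 against 2 to 26 in the controls, a log2 change of 2.65 ± 0.74 (adjusted p = 0.00983), with siControl.2 replicate 2 far below the other controls. NFKB2 had 144 and 176 counts against 65 to 103, a change of 1.17 ± 0.36 (adjusted p = 0.0189). In both genes of the p52 and RELB pair the siFOXA1.1 libraries lay above every control library, which carries no weight beyond the tests given. NFKB1 had 122 and 100 counts against 155 to 260, below every control library, with a change of -0.63 ± 0.30 that did not pass (adjusted p = 0.118).

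Of the targets, BIRC3 showed the largest change of the set, with 168 and 140 counts under siFOXA1.1 against 26, 31, 21 and 11 in the controls. This was an 8.32-fold rise (log2 change 3.06 ± 0.50, adjusted p = 0.000115), and within the batches the log2 CPM differences from the mean of the controls were 2.99 and 2.95. The level reached, 22.6 ± 2.81 CPM (SD, n = 2), remained below the 340.4 to 587 CPM of the SCaBER control libraries. TNFAIP2 had 1122 and 1202 counts against 2179, 2172, 1650 and 1762, a change of -0.51 ± 0.13 (adjusted p = 0.00416). ICAM1 had 15 counts in siFOXA1.1 replicate 1 and 0 in every other RT112 library, and TRAF1 had 0 counts in both siFOXA1.1 libraries.

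The calls differed in how they depended on single libraries and on the control used. BIRC3 passed in all 17 alternatives run, with log2 changes from 1.79 with limma on log2(TPM + 1) to 3.54. Against siControl.1 alone, NFKB2 (1.11) and RELB (2.29) no longer passed, and against siControl.2 alone TNFAIP2 (-0.28) did not. NFKB2 also did not pass without siControl.2 replicate 1 (1.05), without siControl.1 replicate 2 (1.06) or without siFOXA1.1 replicate 2 (0.97), and RELB did not pass without siFOXA1.1 replicate 1 (2.38) and was at 3.99 without siControl.2 replicate 1. With limma on log2(TPM + 0.5), NFKB2 (0.79) and NFKBIA (0.26) did not pass, and the median of all genes was -0.31, with 20.6% of called genes higher in place of 47.9%. With library totals as the scale, the median of all genes was -0.14, 36.9% of called genes were higher, and the same 5 members passed.

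Other measures moved with siFOXA1.1 in RT112. The share of counts from mitochondrial genes averaged 26.99% (SD 1.77, n = 2) under siFOXA1.1, compared with 20.02% (SD 0.516, n = 2) under siFOXA1.2. The averages of the control siRNAs were 20.7% for siControl.1 (SD 0.778, n = 2) and 18.6% for siControl.2 (SD 0.792, n = 2). Luminal markers summed to 2617 to 2931 CPM under siFOXA1.1 and to 3845 to 4866 CPM under the controls. The 6 endothelial and stromal markers summed to 55.8 to 59.6 CPM under siFOXA1.1 and to 10.4 to 17.7 CPM under the controls, of which VWF, COL3A1 and PDGFRB were at 0 in all RT112 libraries and COL1A1 reached 386 counts. The part of these measures in the changes of the 10 genes was not tested. In bulk RNA fewer cells with a transcript and less of it per cell cannot be told apart.

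**Figure D2:**
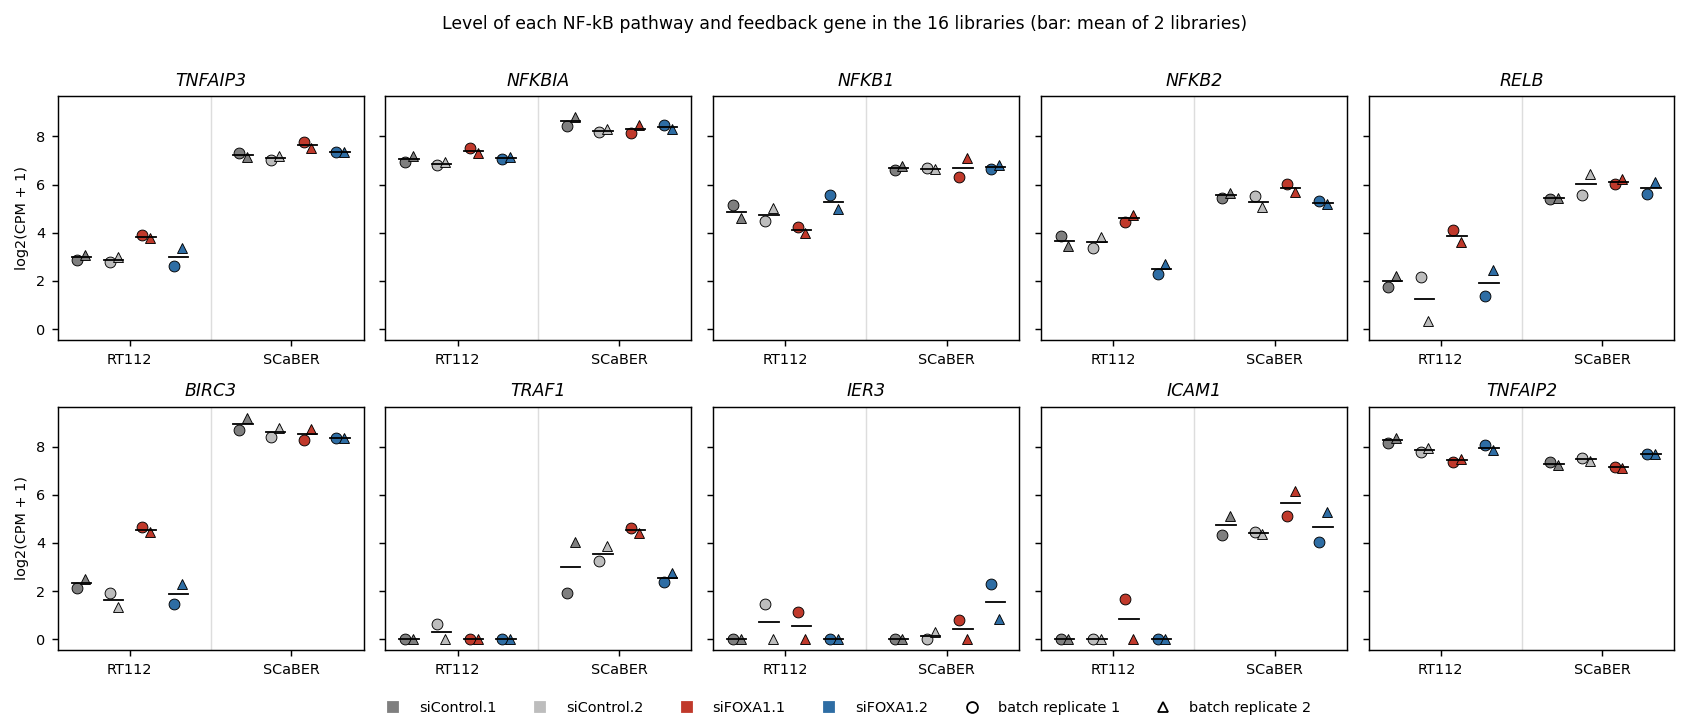
Level of each of the 10 genes in every library, as log2(CPM + 1) on the vertical axis, with RT112 on the left and SCaBER on the right of each panel. Colours are the 4 siRNAs, circles and triangles batch replicates 1 and 2, and bars the mean of the log2 values of the 2 libraries; in RT112 the siFOXA1.1 libraries of BIRC3 are at 24.6 and 20.6 CPM and the controls at 1.53 to 4.68 CPM.

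Under siFOXA1.2 in RT112 no member passed the threshold, 0 of 7 by edgeR and 0 by DESeq2, beside 2.04% of all genes tested. At an unadjusted p under 0.05 there was 1, NFKB2. It had 27 and 40 counts under siFOXA1.2, below the 65 to 103 counts of the controls, with a log2 change of -1.27 ± 0.41 (adjusted p = 0.152). BIRC3 had 12 and 29 counts, within the control range, a change of -0.03 ± 0.56. RELB had 11 and 33 counts, and NFKB1 323 and 225 (change 0.51 ± 0.28, adjusted p = 0.504). The siFOXA1.1 and siFOXA1.2 contrasts share their 4 control libraries.

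The direct comparison of both siRNAs against FOXA1 in RT112 tested this difference. Of 7 members tested, 5 passed, beside 28.1% of all genes. BIRC3 (log2 difference siFOXA1.1 minus siFOXA1.2, 3.09 ± 0.64, adjusted p = 0.00134) and NFKB2 (2.44 ± 0.46, adjusted p = 0.000697) were higher under siFOXA1.1, and passed in all 15 alternatives run for each. NFKBIA was higher by 0.43 ± 0.15 (adjusted p = 0.0467), but passed in 3 of 15 alternatives. NFKB1 (-1.14 ± 0.34, adjusted p = 0.0162) and TNFAIP2 (-0.41 ± 0.14, adjusted p = 0.0362) were lower. Without siFOXA1.2 replicate 1 only BIRC3 and NFKB2 still passed, and without either siFOXA1.1 library 3 members did. RELB, at 2.27 ± 0.92, did not pass by the main edgeR fit (adjusted p = 0.0749). It passed by DESeq2 (adjusted p = 0.0369) and by edgeR without the filter (adjusted p = 0.0435), and was at 2.26 without either siControl.2 library.

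Between siControl.1 and siControl.2 in RT112, the background of the comparisons above, 0 of 7 members passed by edgeR and 1, TNFAIP2, by DESeq2 (adjusted p = 0.0397), beside 2.36% of all genes. TNFAIP2 was also the only member at an unadjusted p under 0.05, with 2179 and 2172 counts under siControl.1 and 1650 and 1762 under siControl.2 (log2 difference 0.47 ± 0.14, adjusted p = 0.103). The control difference of TNFAIP2 was thus close in size to its change under siFOXA1.1. BIRC3 had the largest difference between the controls, 0.96 ± 0.63 (adjusted p = 0.591), and NFKBIA differed by 0.25 ± 0.16.

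Pooled over both siRNAs, the 4 siFOXA1 libraries were compared with the 4 siControl libraries in RT112, as in the design of the study. No member passed, 0 of 7 by edgeR and 0 by DESeq2, beside 0.108% of all genes, and 2 members, BIRC3 and RELB, had an unadjusted p under 0.05. BIRC3 had a pooled change of 2.14 ± 0.77 (adjusted p = 0.319) and RELB of 1.88 ± 0.83 (adjusted p = 0.399). In both genes the 2 siFOXA1.1 libraries were above all controls. Of the siFOXA1.2 libraries, only replicate 2 of RELB was, at 4.51 CPM against at most 3.62 CPM in the controls.

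**Figure D3:**
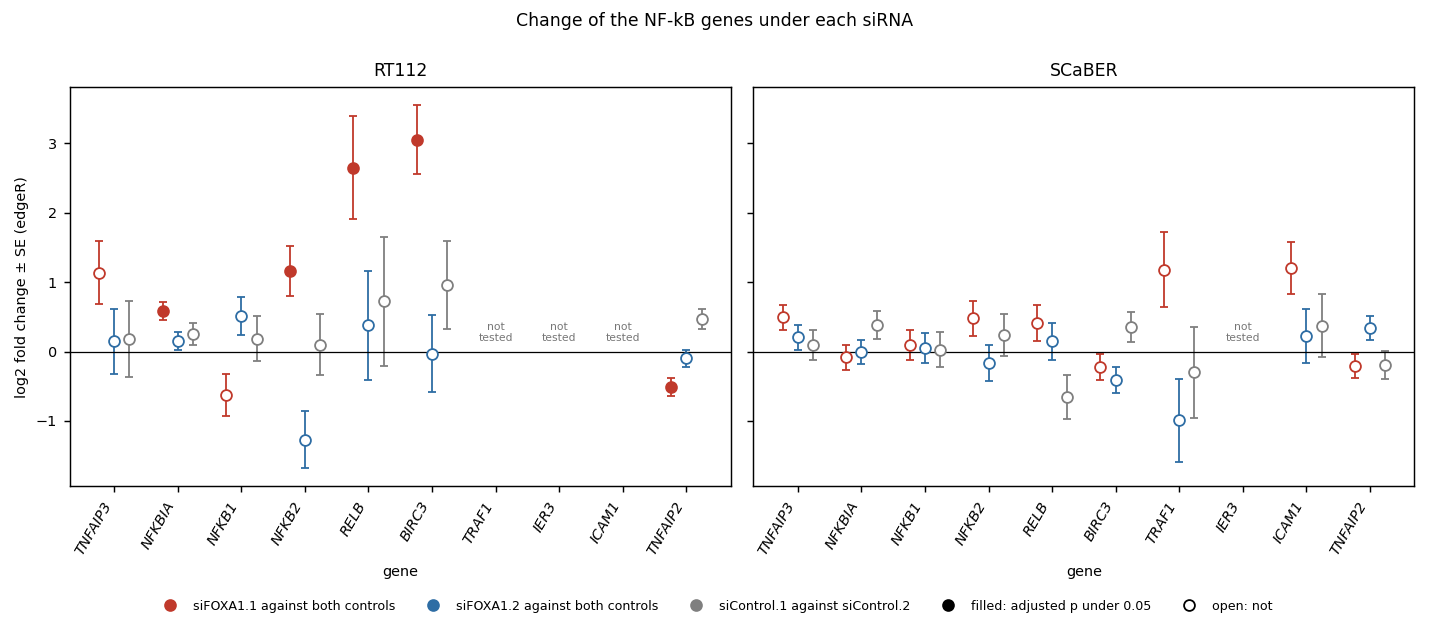
Log2 fold change ± SE (edgeR) of each of the 10 genes under siFOXA1.1 and siFOXA1.2 against both controls, and of siControl.1 against siControl.2, in RT112 (left) and SCaBER (right). Filled points pass an adjusted p of 0.05; the 5 filled points are BIRC3, RELB, NFKB2, NFKBIA and TNFAIP2 under siFOXA1.1 in RT112, and no point is filled in SCaBER.

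In SCaBER under siFOXA1.1 none of 9 tested members passed by edgeR, 1 passed by DESeq2, and 3 had an unadjusted p under 0.05, beside 9.26% of the 11902 genes tested. The median log2 change was 0.41 over the members and 0.01 over all genes. IER3 was not tested.

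ICAM1 had the largest change, with 176 and 492 counts under siFOXA1.1 against 115, 216, 127 and 89 in the controls. In CPM siFOXA1.1 replicate 1, at 33.3, was just below the highest control, at 33.7. The rise was 2.30-fold (SE 0.37 on the log2 scale, adjusted p = 0.0594). It passed with the batch replicate as a block (log2 change 1.12 ± 0.30, adjusted p = 0.023), by DESeq2 (adjusted p = 0.0328) and without siFOXA1.1 replicate 1 (adjusted p = 0.0106). TRAF1 had 125 and 141 counts against 17, 98, 53 and 61, above every control library, a change of 1.18 ± 0.54 (adjusted p = 0.204). Without siControl.1 replicate 2, which had the most TRAF1 among the controls, TRAF1 passed with a change of 2.00 (adjusted p = 0.0279).

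Of the feedback and subunit genes of SCaBER, TNFAIP3 had 1140 and 1243 counts against 936, 913, 804 and 663, above the controls in CPM as well (216 and 179.8 against 131 to 156), with a change of 0.50 ± 0.18 (adjusted p = 0.106). Without siFOXA1.1 replicate 2 it passed at an adjusted p of 0.0491. NFKBIA (-0.09 ± 0.18), NFKB1 (0.10 ± 0.22), NFKB2 (0.48 ± 0.25) and RELB (0.41 ± 0.26) did not pass in any alternative. BIRC3, the member with the largest rise in RT112, had 1645 and 2962 counts against 1980 to 3769, a change of -0.23 ± 0.19 (adjusted p = 0.545). TNFAIP2 was at 142 and 138 CPM, below the 148 to 183 CPM of the controls, with a change of -0.21 ± 0.18 (adjusted p = 0.539). Under siFOXA1.1 luminal markers summed to 99.99 to 103 CPM in SCaBER and to 147 to 192 CPM under the controls, and the part of this in the values above was not tested.

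Under siFOXA1.2 in SCaBER 0 of 9 members passed by edgeR and 0 by DESeq2, beside 0.042% of all genes, and 1 member, BIRC3, had an unadjusted p under 0.05 (-0.41 ± 0.19, adjusted p = 0.935). TRAF1 had 27 and 36 counts, a change of -0.99 ± 0.60. TNFAIP2, at 204.5 and 207 CPM, was above every control library, with a change of 0.33 ± 0.17 (adjusted p = 0.997). Between the siRNAs against FOXA1, 0 of 9 members passed by edgeR and 1 by DESeq2, beside 4.85% of all genes, and 4 had an unadjusted p under 0.05. TRAF1 was 4.50-fold higher under siFOXA1.1 (log2 difference 2.17 ± 0.68, adjusted p = 0.086), and passed with the batch replicate as a block (2.26 ± 0.63, adjusted p = 0.0406), by DESeq2 (adjusted p = 0.0261), and without either siControl.1 library. Between the control siRNAs 0 of 9 members passed by edgeR and 0 by DESeq2, with 0 at an unadjusted p under 0.05, beside 0.0672% of all genes. In the pooled comparison 0 of 9 passed by edgeR and 0 by DESeq2, with 0 at an unadjusted p under 0.05, beside 0.0084% of all genes.

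Whether the response to siFOXA1.1 differed between the lines was tested as an interaction over all 16 libraries. BIRC3 was the only 1 of 9 members to pass, beside 3.14% of the 13701 genes tested. Its log2 change was higher in RT112 than in SCaBER by 3.27 ± 0.34 (adjusted p = 2.91e-05), and passed in all 23 alternatives, from 2.04 to 3.52. RELB (2.22 ± 0.66, adjusted p = 0.0739) and NFKBIA (0.65 ± 0.22, adjusted p = 0.119) passed by DESeq2 (adjusted p = 0.0217 and 0.0492) and not by the main edgeR fit. By edgeR without the filter, RELB passed (2.21, adjusted p = 0.000569). RELB also passed without RT112 siControl.2 replicate 1 and NFKBIA without SCaBER siFOXA1.1 replicate 2. ICAM1, at 0 in every RT112 control library, passed by edgeR with the batch replicate as a block (adjusted p = 0.0374) and without the filter (adjusted p = 0.00883). The size of its change has no meaning there. For siFOXA1.2 the interaction gave 0 of 9 by edgeR and 0 by DESeq2, with 2 at an unadjusted p under 0.05, beside 0.0438% of all genes.

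The other genes of the pathway were read from a list of 78 ligands, receptors, adaptors, kinases, subunits, inhibitors and targets. In RT112 under siFOXA1.1, 54 of them were tested and 15 passed, a share under the 32.6% of all genes. Of these 15, 12 rose and 3 fell, where of all 11986 genes tested 1870 were called higher and 2033 lower. The median log2 change of the list was 0.18. By role, 5 of 11 tested targets rose and none fell, 3 of 11 inhibitors rose and 2 fell, 2 of 7 receptors and 1 of 2 ligands rose, and no kinase or subunit passed. The ligand, IL1A, and 1 of the receptors, TNFRSF1B, were tested only through their siFOXA1 libraries. A rise was favoured by the filter for both, and their calls add no support to these counts. In SCaBER under siFOXA1.1, 64 were tested, 10 rose, 7 of them targets, and none fell, beside 9.26% of all genes, with a list median of 0.40. Of all 11902 genes tested there, 532 were called higher and 570 lower. Under siFOXA1.2 the list medians were -0.02 in RT112 and 0.08 in SCaBER. The 12 genes with the largest called changes are described here.

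In both lines, 3 of these 12 rose under siFOXA1.1. ATF3, a stress-induced transcription factor, had 186 and 254 counts in RT112 against 43 to 79 in the controls (log2 change 1.97 ± 0.35, adjusted p = 0.000245), and changed by 1.196 ± 0.31 in SCaBER (adjusted p = 0.0248). CYLD, a deubiquitinase that restrains the pathway, rose by 1.48 ± 0.27 and by 1.04 ± 0.26. SDC4, a cell surface proteoglycan, rose by 0.91 ± 0.11 and by 1.51 ± 0.15, and was also the 1 listed gene that differed between the control siRNAs in RT112 (0.68 ± 0.13, adjusted p = 0.00542).

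In RT112 but not in SCaBER, 5 of the 12 passed. These were PLAU, IL1A, TNFRSF1B, TNFRSF12A, the receptor of TWEAK (log2 change 1.61 ± 0.22), and EFNA1, an ephrin (1.49 ± 0.28). PLAU, which encodes urokinase, had 174 and 184 counts against 16 to 64 (2.64 ± 0.45). IL1A, an interleukin-1 ligand, had 22 and 86 counts against 0 to 25 (2.97 ± 1.05, adjusted p = 0.036), with 1 siFOXA1.1 library within the control range. TNFRSF1B, the second TNF receptor, had 50 and 51 counts (2.15 ± 0.72). Its controls were split, at 4 and 6 counts under siControl.1 and 30 and 39 under siControl.2. Too few control libraries of IL1A and TNFRSF1B reached the filter level, so that both genes were tested only through their siFOXA1 libraries. Those that passed in SCaBER but not in RT112 were CXCL10, a chemokine (122 and 323 counts against 12 to 35, 3.43 ± 0.63, adjusted p = 0.0032), PTGS2, the inducible cyclooxygenase (69 and 141 against 10 to 24, 2.56 ± 0.61), CD83 (1.46 ± 0.36) and SOD2, a mitochondrial superoxide dismutase (1.42 ± 0.26). CXCL10 was not tested in RT112, where it was at 0 in the controls and had 9 and 16 counts under siFOXA1.1, and TNFRSF1B was not tested in SCaBER. The difference between lines did not pass for any of the 12 genes, with adjusted p from 0.0616 (PTGS2) upwards. Of the whole list 66 genes were tested for the interaction and 2 passed, beside 3.14% of all genes, a share close to that of the list. They were CXCL8, a chemokine (4.06, adjusted p = 0.0453), and NFKBIZ, a nuclear IkB protein (-1.45, adjusted p = 0.0136), both named after their values were seen.

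**Figure D4:**
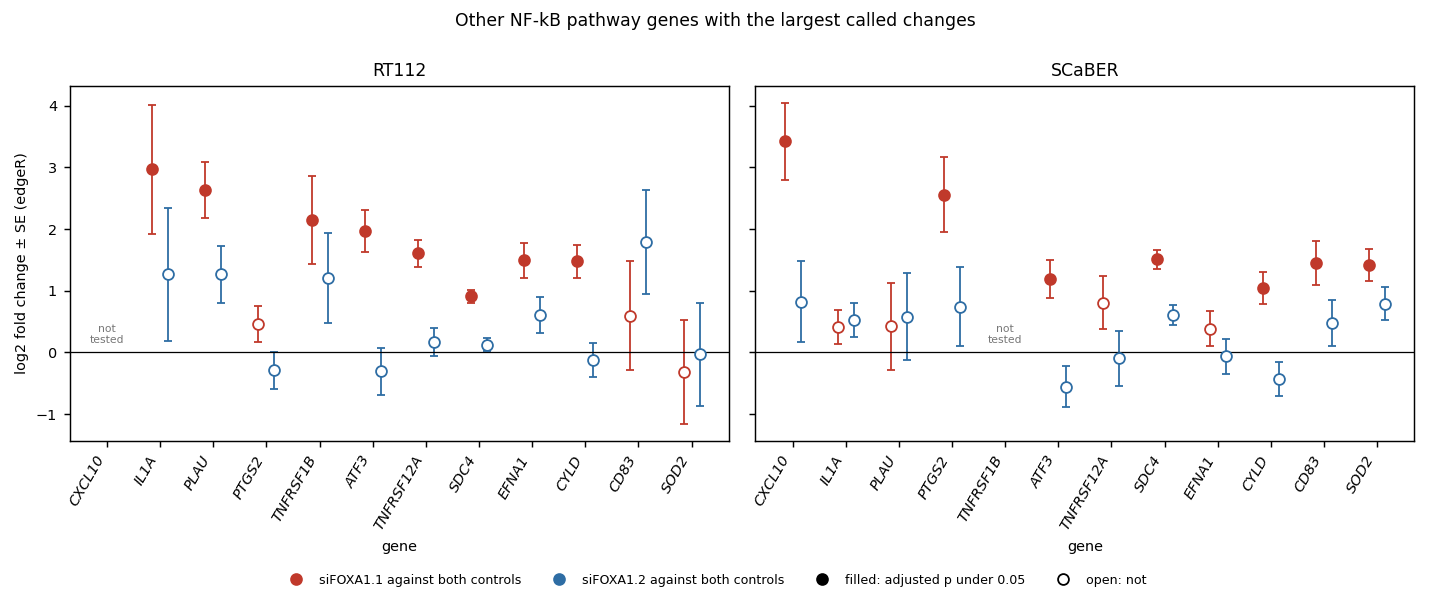
Log2 fold change ± SE (edgeR) under siFOXA1.1 and siFOXA1.2 against both controls of the 12 listed NF-kB pathway genes with the largest called changes, in RT112 (left) and SCaBER (right). Filled points pass an adjusted p of 0.05; all filled points are siFOXA1.1, and ATF3, SDC4 and CYLD are filled in both lines.

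Between the lines under the control siRNAs, 61 of the 78 listed genes were tested, 5 were higher and 27 lower in RT112, beside 43.4% of all genes called, with a list median of -0.62. Targets accounted for 12 of the 27. Of the 12 genes described above 7 were lower in RT112, among them IL1A (-5.04 ± 0.62), PLAU (-4.05 ± 0.65) and SOD2 (-2.75 ± 0.38). IL1A was below the filter level in most RT112 control libraries and entered this comparison only through SCaBER. Of the listed targets, 18 were tested here and 11 within RT112, so that some targets also entered through their counts in SCaBER. For such genes a lower level in RT112 was set in advance, and their calls add no support. The 27 lower genes, the 12 targets among them and the list median therefore rest in part on the filter. PTGS2 was higher in RT112, by 3.07 ± 0.39.

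The pattern of single genes over the 16 libraries was described by the root mean square difference of log2 CPM after each line was centred on its mean, among 7661 genes with at least 20 counts in every library. For TNFAIP3 the nearest genes were ITM2B (0.166), EMC3 (0.18) and ATP6V0B (0.187), where the median gene was at 0.545. For NFKBIA they were TUG1 (0.115), CD24 (0.126) and REST (0.127), with the median gene at 0.44. A gene that did not vary within a line would lie at 0.379 from TNFAIP3 and at 0.209 from NFKBIA. A distance below the median therefore need not mean a shared pattern. These distances are over libraries that share siRNAs and batches, and carry no test.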

How the data were processed

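Raw counts per gene and TPM values for 16 libraries were deposited as 2 tables of the whole series. Per the deposited configuration, the authors trimmed reads with TrimGalore 0.6.2 (minimum quality 20, minimum length 10), and counted them on hg38 with STAR 2.6.1a and GENCODE 29. In the paper's methods the build is hg19. Positions here are from RefSeq GRCh38.p14, and no deposited coordinate was used. The authors' TPM divides counts by gene length, although QuantSeq reads 3′ ends, so that TPM can understate long transcripts.

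Counts were tested with edgeR 4.0.16 in R 4.3.3 (TMM, filterByExpr, quasi-likelihood F test, Benjamini-Hochberg adjustment over all genes tested, threshold 0.05), 1 mean per siRNA and line. SE is the absolute log2 change divided by the root of F. The control mean was that of both control siRNAs. DESeq2 1.42.0, limma 3.58.1 on log2(TPM + 0.5) and log2(TPM + 1), other scalings, no filter, single controls, the replicate block and leaving out each library were alternatives. The scripts were tested on simulated counts. The labels call the replicate number an experiment batch, so that it pairs the libraries. Correlations of same-numbered deviations were -0.018 to 0.014 for RT112 and 0.019 to 0.2 for SCaBER. The reported tests had no block. No pair of replicates agreed within sampling noise.

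The members and lists were chosen with earlier results of these data known. Named genes were the 10 members, FOXA1, the 12 listed pathway genes with the largest called change at a mean of 20 counts or more under either siFOXA1 siRNA in either line, and the 3 genes nearest to TNFAIP3 and to NFKBIA.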

Additional observations from a re-analysis of the deposited data

Results flagged for a closer look

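Of 38 groups of 4 libraries (1 gene, line and target) in which the CPM varied, 8 held 1 library far from the other 3 by Dixon's criterion. Chance gives about 1 in 20 for groups with spread values, which applies to 3 of the 8. In SCaBER siControl, RELB was at 86.1 CPM in siControl.2 replicate 2 and at 41.6 to 46.4 CPM in the others, and ICAM1 was at 33.7 CPM in siControl.1 replicate 2 and at 19.1 to 20.6 CPM in the others. In SCaBER siFOXA1, BIRC3 was at 428 CPM in siFOXA1.1 replicate 2 and at 311.5 to 329 CPM in the others. The other 5 were single libraries beside 3 at 0, where any count meets the criterion and the chance rate has no meaning. These were TRAF1 in RT112 siControl (0.532 CPM, siControl.2 replicate 1), IER3 in RT112 siControl (1.73 CPM, the same library), IER3 in RT112 siFOXA1 (1.17 CPM, siFOXA1.1 replicate 1), ICAM1 in RT112 siFOXA1 (2.2 CPM, the same library) and IER3 in SCaBER siControl (0.221 CPM, siControl.2 replicate 2).

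The change of BIRC3 under siFOXA1.1 differed between the lines by the interaction test, with a log2 difference of 3.27 (RT112 minus SCaBER, edgeR adjusted p = 2.91e-05).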

How the results depend on the processing

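Of 20 member calls, 12 passed the threshold in every alternative run and 0 of 318 alternative values changed sign, while 29 no longer passed. Cause was not tested for any change. RT112 siFOXA1.1 against controls had 5 members called, 3 with siControl.1 alone, 3 with limma on log2(TPM + 0.5), 3 on log2(TPM + 1), and 4 to 5 without 1 library. RT112 siFOXA1.1 against siFOXA1.2 had 5, and 2 to 5 without 1 library. RT112 siControl.1 against siControl.2 had 0, and 1 by DESeq2. SCaBER siFOXA1.1 against controls had 0, and 1 by DESeq2, without the filter and with the replicate block (ICAM1), and 0 to 1 without 1 library. SCaBER siFOXA1.1 against siFOXA1.2 had 0, and 1 by DESeq2, without the filter and with the replicate block (TRAF1), and 0 to 1 without 1 library. The interaction with siFOXA1.1 had 1, and 3 by DESeq2, 3 without the filter, 2 with the replicate block, and 1 to 2 without 1 library. The block changed no other member call. By CPM in place of TPM, 6 of 10 members kept their place in the SCaBER order, and BIRC3 in place of NFKBIA stood first. A looser motif (3 G, any 5 bases, 2 C) was in 8 of 8 genes, and in 61.7% of all genes. Counts over all genes moved by over 1.5 times in RT112 for siFOXA1.2 against controls (245, from 64 to 430), the control siRNAs (283, from 62 to 463) and the pooled comparison (13, from 0 to 164). They did so in SCaBER for siFOXA1.1 against controls (1102, from 526 to 1525) and against siFOXA1.2 (577, from 108 to 1036), siFOXA1.2 against controls (5, from 0 to 42), the control siRNAs (8, from 0 to 91, and 35 with the block) and the pooled comparison (1, from 0 to 213), and for the interactions with siFOXA1.1 (430, from 239 to 768) and siFOXA1.2 (6, from 0 to 66). With limma on log2(TPM + 0.5) the share of called genes that were higher went from 46.4% to 21.7% for RT112 siFOXA1.1 against siFOXA1.2, and from 41.6% to 13.9% for the interaction with siFOXA1.1. With 2 libraries per siRNA, leaving 1 out assumes that the lone library varies like the others. ICAM1, TRAF1 and IER3 did not pass the filter within RT112.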
